A study of Mus musculus with 7 samples.

Results

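Of the 3631 peaks called for trimethylation of lysine 27 on histone H3 (H3K27me3) in control epidermal progenitor cells, 812 were at least 8 kb wide, and 269 of these shared no base with any of the 2340 peaks called in Ring1a/b double-knockout (2KO) cells. These 269 wide control domains, called unmet below, are described here; the other 543 wide domains, which share at least 1 bp with a 2KO peak, are called met. Width in the control list and absence of an overlapping 2KO peak chose the unmet domains, so both are descriptions and no finding. The data are chromatin immunoprecipitation followed by sequencing of epidermal progenitors (EpCAM+, Sca1+, integrin alpha 6 high) sorted from back skin of newborn mice at postnatal day 0. Control and 2KO cells had 2 labelled libraries each and 1 list of called peaks each. The driver of the Ring1a and Ring1b deletion is not given in the sources used here, and input libraries and the libraries of Eed cKO cells were not analysed here. The titles of the 2KO libraries name H3K27me1 whereas their antibody field and peak list name H3K27me3. Each genotype had a single list, so replicate error and depth are unknown, genotypes could not be tested against each other, and the lack of a called 2KO peak does not show that the mark was lost. Intervals are 95% Wilson intervals for shares and 95% Newcombe intervals for differences. They cover counting error only, and neighbouring domains are not independent.

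H3K27me3 is written by Polycomb repressive complex 2, and Ring1a and Ring1b (genes Ring1 and Rnf2) are the alternative ubiquitin ligases of Polycomb repressive complex 1, which marks histone H2A. The complexes read each other's marks, and broad H3K27me3 domains classically cover CpG-rich starts of genes of other lineages. None of 6 markers of basal epidermal progenitors (Krt5, Krt14, Itga6, Epcam, Ly6a and Trp63) lay at a control peak. Of markers of other cells the sort could hold, control peaks marked 3 of 4 for dermal fibroblasts, 5 of 6 for Merkel cells, 2 of 5 for melanocytes, 0 of 3 for immune cells and 1 of 3 for endothelium, and none of these lay at an unmet domain. At 2KO peaks lay 2 of the 3 immune markers (Cd3g and Cd207), 2 dermal, 3 Merkel, 1 melanocyte, 1 endothelial and 0 basal markers. Of all protein-coding genes, 10.1% had an end within 1 kb of a control peak, and the matching share for 2KO peaks was not computed. These marker sets are small, so nothing is read from their counts, and the part of other cells in the peak lists was not tested.

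The starts of 4 genes under wide unmet domains, and of 2 genes with few CpG, show the sequence found under these domains. Each run below gives the 250 bases before a start from RefSeq, build GRCm38.p6, 5′ to 3′, with every CpG (CG) in capitals. Cdkn2a, which encodes the cell cycle inhibitors Ink4a and Arf from alternative starts, has a start after chr4:89282193-89282442 and another after chr4:89294620-89294869, both on the minus strand. Its neighbour Cdkn2b, another inhibitor gene, has its start after chr4:89311033-89311282 on the minus strand. Lhx2, which encodes a LIM homeobox regulator of follicle stem cells, is shown at chr2:38339031-38339280 on the plus strand, and Emx2, a homeodomain factor of forebrain and urogenital tract, at chr19:59458440-59458689 on the plus strand. Ucma, a cartilage matrix gene, is shown at chr2:4975872-4976121 on the plus strand, and Pth, the parathyroid hormone gene, at chr7:113388574-113388823 on the minus strand.
Cdkn2a inner start: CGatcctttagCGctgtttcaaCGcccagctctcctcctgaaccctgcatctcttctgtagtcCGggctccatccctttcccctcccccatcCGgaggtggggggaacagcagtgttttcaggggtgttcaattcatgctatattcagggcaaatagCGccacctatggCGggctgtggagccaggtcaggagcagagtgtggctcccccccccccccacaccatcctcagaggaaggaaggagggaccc
Cdkn2a outer start: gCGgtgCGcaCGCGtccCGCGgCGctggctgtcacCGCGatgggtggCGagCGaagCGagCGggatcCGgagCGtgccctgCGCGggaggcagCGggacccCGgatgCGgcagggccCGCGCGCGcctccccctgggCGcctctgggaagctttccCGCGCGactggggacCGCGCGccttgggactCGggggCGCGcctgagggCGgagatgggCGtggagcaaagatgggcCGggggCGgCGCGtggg
Cdkn2b: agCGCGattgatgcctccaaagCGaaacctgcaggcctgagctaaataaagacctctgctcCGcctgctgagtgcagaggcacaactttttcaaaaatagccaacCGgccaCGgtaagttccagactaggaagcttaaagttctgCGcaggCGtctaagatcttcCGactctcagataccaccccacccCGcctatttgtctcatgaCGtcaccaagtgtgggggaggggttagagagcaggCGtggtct
Lhx2: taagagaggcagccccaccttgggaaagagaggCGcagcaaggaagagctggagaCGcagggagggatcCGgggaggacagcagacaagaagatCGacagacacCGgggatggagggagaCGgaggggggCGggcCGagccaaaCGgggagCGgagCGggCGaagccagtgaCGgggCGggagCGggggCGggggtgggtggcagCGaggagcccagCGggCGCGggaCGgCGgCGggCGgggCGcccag
Emx2: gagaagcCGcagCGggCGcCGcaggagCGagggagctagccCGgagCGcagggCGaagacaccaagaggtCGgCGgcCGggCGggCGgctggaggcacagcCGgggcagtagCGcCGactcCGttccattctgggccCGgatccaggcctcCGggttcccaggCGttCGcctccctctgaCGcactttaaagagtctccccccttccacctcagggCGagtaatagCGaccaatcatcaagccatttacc
Ucma: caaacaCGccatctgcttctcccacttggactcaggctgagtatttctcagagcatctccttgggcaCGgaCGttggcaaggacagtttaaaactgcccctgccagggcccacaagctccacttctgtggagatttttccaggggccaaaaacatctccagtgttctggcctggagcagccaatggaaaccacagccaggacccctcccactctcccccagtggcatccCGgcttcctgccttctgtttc
Pth: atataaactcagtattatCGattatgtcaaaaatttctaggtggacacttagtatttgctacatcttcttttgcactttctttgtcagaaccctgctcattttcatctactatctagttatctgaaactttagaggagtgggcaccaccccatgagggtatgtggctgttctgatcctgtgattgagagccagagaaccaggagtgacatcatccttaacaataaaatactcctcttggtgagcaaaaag
The outer Cdkn2a start holds 40 CpG in these bases and the inner one 7. Cdkn2b holds 12, Lhx2 25 and Emx2 24, whereas Ucma holds 4 and Pth 1. CpG-rich and CpG-poor starts thus both lay under wide domains that had no 2KO peak.

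The unmet domains covered 3.71 Mb, which is 14.9% of all bases under control peaks. Their median width was 11.5 kb (quartiles 9.20 and 15.2 kb, highest 49.1 kb), compared with 13.3 kb (quartiles 9.69 and 21.3 kb, highest 131 kb) for met domains. There were 34 unmet and 156 met domains of 20 kb or more. Of control peaks of all widths, 52.6% (1910 of 3631) had no 2KO peak, against 33.1% (269 of 812, 30.0 to 36.4) at 8 kb or more and 58.2% (1641 of 2819) below it. These shares restate the rule, and wider peaks have more bases that can overlap, so nothing is read from them. Just above the threshold lay domains of 8002 bp inside Bdnf, 8025 bp between genes 211 kb from Lnpk and 8029 bp inside Begain. Just below it lay control peaks without a 2KO peak of 7976 bp at Kcnq1, 7963 bp between genes 154 kb from Itga1 and 7953 bp inside Ncoa2. On the other side of the overlap rule, the wide domains with the least 2KO cover were those of Krt8 and Krt18 (4.82%), of Hoxc13 to Hoxc9 (7.02%) and of Dmrt1 and Dmrt3 (10.9%).

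**Figure D1:**
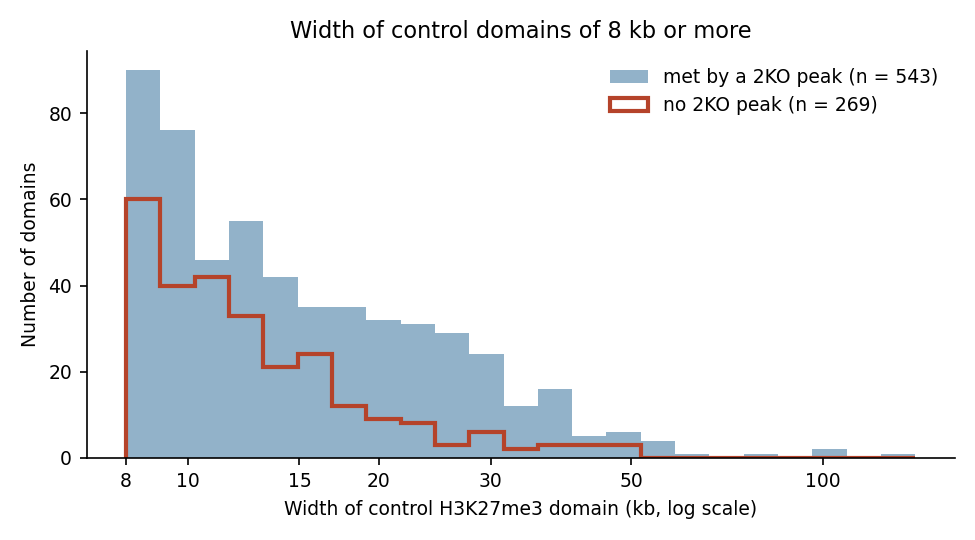
Number of control H3K27me3 domains of 8 kb or more by width (kb, log scale), with the 269 domains without a 2KO peak as a red outline and the 543 met by one as blue bars. The unmet domains reach 49.1 kb and the met ones 131 kb.

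The rule sets the distance to a 2KO peak above 0 and no further. Its median over unmet domains was 359 kb (quartiles 113 and 797 kb). A 2KO peak lay within 100 kb of 57 domains and within 5 kb of 4, and 57 domains had none within 1 Mb. The nearest was 1017 bp from a 21.2 kb domain inside Grb10, which encodes an adaptor that dampens insulin signalling. The farthest were an 8.21 kb domain inside Pappa (6.93 Mb), the 30.4 kb Ucma domain (5.35 Mb), a 15.6 kb domain 134 kb from Alcam (4.12 Mb), an 8.29 kb domain at Sowahb (3.51 Mb) and a 9.14 kb domain inside Pcdh19 (3.41 Mb).

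Unmet domains were at genes less often than met ones. An end of a protein-coding gene lay within 1 kb of 116 of 269 unmet domains (43.1%, 37.3 to 49.1) and of 431 of 543 met domains (79.4%, 75.8 to 82.6), a difference of -36.3 percentage points (-42.9 to -29.3). A further 54 unmet domains (20.1%) lay inside a gene body away from its ends, against 44 met ones (8.10%), and 99 (36.8%, 31.3 to 42.7) lay between genes, against 68 (12.5%, 10.00 to 15.6). Control peaks under 8 kb differed in the same direction, with 46.3% (43.9 to 48.7) of 1641 without a 2KO peak and 59.8% (56.9 to 62.5) of 1178 met ones at a gene end, so a lower gene-end share is not particular to wide domains. Gene-end shares were also lower for unmet domains within each of 4 width classes. From 8 to 10 kb the shares were 53.7% of 95 unmet and 73.5% of 155 met domains, with intervals of 43.7 to 63.4 and 66.1 to 79.9. From 10 to 15 kb they were 34.0% of 103 and 75.6% of 156. From 15 to 25 kb they were 38.5% of 52 and 80.1% of 136, and at 25 kb or more 52.6% of 19 (31.7 to 72.7) and 93.8% of 96 (87.0 to 97.1). Unmet domains at gene ends, inside genes and between genes had median widths of 10.7, 11.3 and 12.2 kb, and their median distances to a 2KO peak were 305, 256 and 452 kb.

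**Figure D2:**
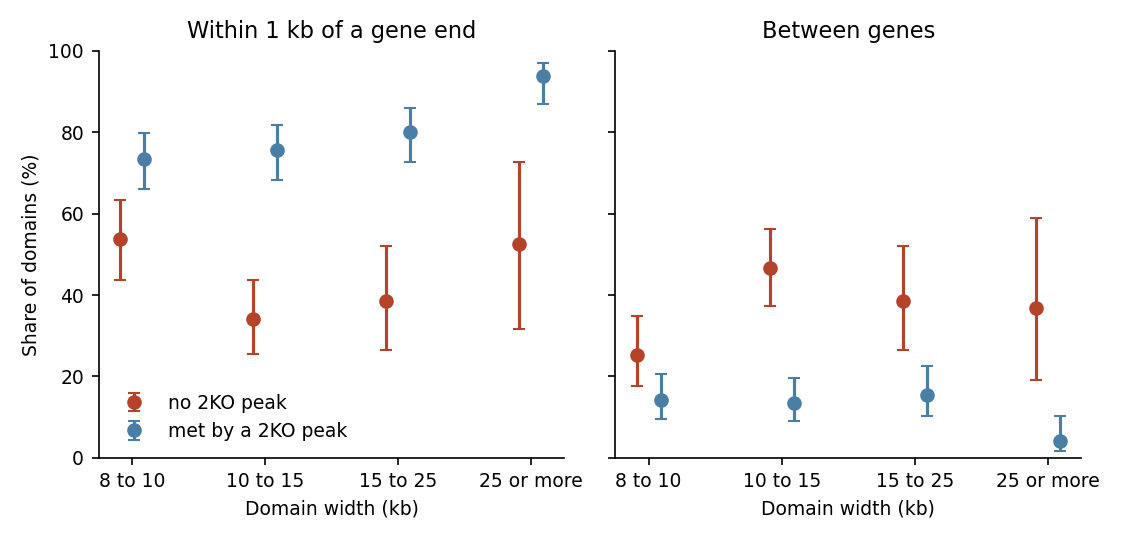
Share of wide control domains (%) within 1 kb of a protein-coding gene end (left) and between genes (right) by domain width (kb), for domains without a 2KO peak (red) and met by one (blue), with 95% Wilson intervals. In the class from 10 to 15 kb, 34.0% of unmet and 75.6% of met domains lie at a gene end.

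Unmet domains tended to lie beside other control peaks that also had no 2KO peak. The nearest other control peak had none for 209 of 269 unmet domains (77.7%, 72.4 to 82.3) and for 235 of 543 met domains (43.3%, 39.2 to 47.5), a difference of 34.4 points (27.6 to 40.6). Some of these neighbours were under 8 kb wide and so were not themselves chosen by the rule. With them alone the shares were 79.4% of 175 and 52.4% of 397 (difference 27 points, 18.8 to 34.3). The unmet domains were still chosen by width and by absence of an overlapping 2KO peak. A 2KO peak over a met domain can also reach a close neighbour, whereas an unmet domain has no such peak by the rule. Narrow neighbours are thus not free of the rule, and how often a 2KO peak overlapped both was not counted. Control peaks under 8 kb again differed in the same direction, at 61.4% (59.0 to 63.8) without a 2KO peak and 38.1% (35.4 to 40.9) when met. For unmet domains between genes the share was 92.9% (86.1 to 96.5), inside genes 87.0% (75.6 to 93.6) and at gene ends 60.3% (51.2 to 68.8). The median gap to that neighbour was 4.13 kb between genes, 3.56 kb inside genes and 66.6 kb at gene ends; whether close neighbours are pieces of 1 longer domain was not tested. With neighbours at least 50 kb away, a setting added after the data were seen, the shares were 65.4% (59.6 to 70.9) and 45.7% (41.5 to 49.9), a difference of 19.8 points (12.5 to 26.6).

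**Figure D3:**
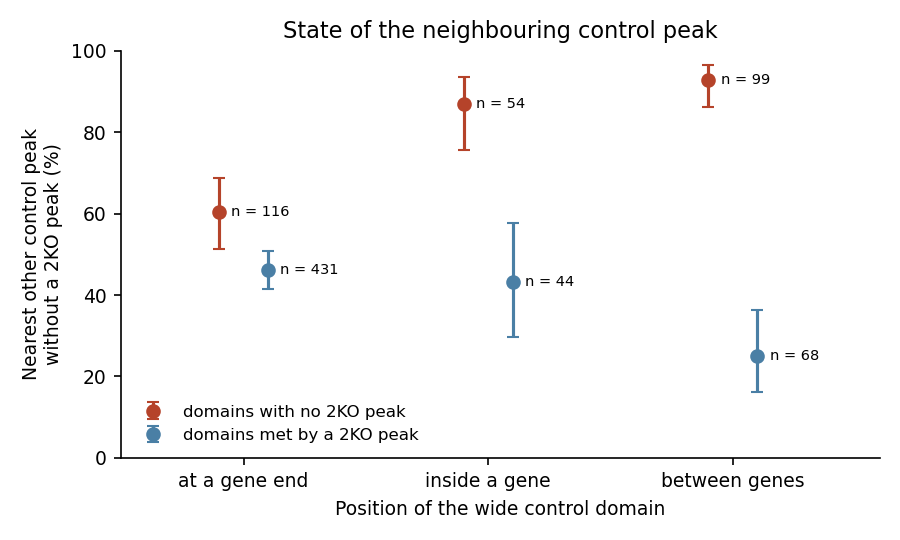
Share of wide control domains (%) whose nearest other control peak had no 2KO peak, by position of the domain, for domains without a 2KO peak (red) and met by one (blue), with 95% Wilson intervals and the number of domains. Between genes the shares are 92.9% of 99 and 25.0% of 68.

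Chained over gaps of up to 200 kb, 60 of the 269 unmet domains (22.3%) fell into 15 groups of 3 or more. These groups held 92 control peaks of all widths, of which the 60 unmet domains have no 2KO peak by the rule, and 1 of the other peaks was met. Of all control peaks under 8 kb, 58.2% (1641 of 2819) had no 2KO peak. The groups were built from unmet domains, and no matching count was made for met ones, so whether unmet domains are more crowded was not tested. The most crowded group lay on chromosome 15 from 50705151 to 51139366, with 8 unmet domains (139 kb in all) over and beside Trps1, which encodes a GATA-type zinc finger repressor of hair and skeletal development. It held 13 control peaks and no 2KO peak. The widest domain here measured 35.9 kb (51075416 to 51111358), lay 185 kb from Trps1 and overlapped the long non-coding RNA gene Gm34446. A 24.5 kb domain (50875067 to 50899585) met an end of Trps1. Farther along, between genes, lay a further group of 3 with domains of 29.3, 23.4 and 11.5 kb (51379996 to 51448201). The whole stretch belonged to a run of 32 consecutive control peaks over 12.2 Mb, to position 62898251, with no 2KO peak, 14 of them unmet domains. Chromosome 15 held 28 unmet of 44 wide domains (63.6%, 48.9 to 76.2), the highest share of any chromosome, and chromosome 10 the lowest (5 of 32, 15.6%, 6.86 to 31.8). Chromosome X held 7 of 19.

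Next in number was a group of 6 domains (130 kb) on chromosome 5 from 136507748 to 136726662. It held 10 control peaks and no 2KO peak. Cux1, a homeodomain factor of the hair follicle inner root sheath, had a 24 kb domain 0.129 kb beyond its end and a 12.5 kb domain inside it. A 45.0 kb domain without a protein-coding gene (136629484 to 136674468) lay between Cux1 and Myl10, a myosin light chain gene that had a 13.0 kb domain, and a 22.5 kb domain (136704178 to 136726662) lay 2.32 kb beyond Myl10. On chromosome 13 (53064833 to 53323821), 4 domains (73.1 kb) included 16.5 kb at Ror2, which encodes a receptor for Wnt5a, and 22.8 kb between genes (53301021 to 53323821), 8.93 kb from Sptlc1. Wnt5a itself had a 15.2 kb unmet domain on chromosome 14.

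Some genes held more than 1 unmet domain. Zfhx3, a zinc finger homeobox gene, held 6 unmet domains with 121 kb in all, or 17.7% of its body. The widest unmet domain of the list was among them (chromosome 8, 108797331 to 108846449, 49.1 kb), 115 kb from the nearest end of the gene. One of the 18 control peaks that overlap Zfhx3 was met. Tgfb2, which encodes a transforming growth factor beta ligand, held 4 domains of 12.4, 10.7, 8.54 and 12.2 kb that covered 50.5% of the gene, and none of its 5 control peaks was met. Tsc22d3, a glucocorticoid-induced leucine zipper gene on chromosome X, was covered to 90.5% by domains of 37.0 and 28.4 kb, the first of which ran past the gene. B4galt5, a galactosyltransferase gene, was covered to 65.0% by 2 domains of 21.4 and 15.9 kb, the second of which ran past the gene.

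**Figure D4:**
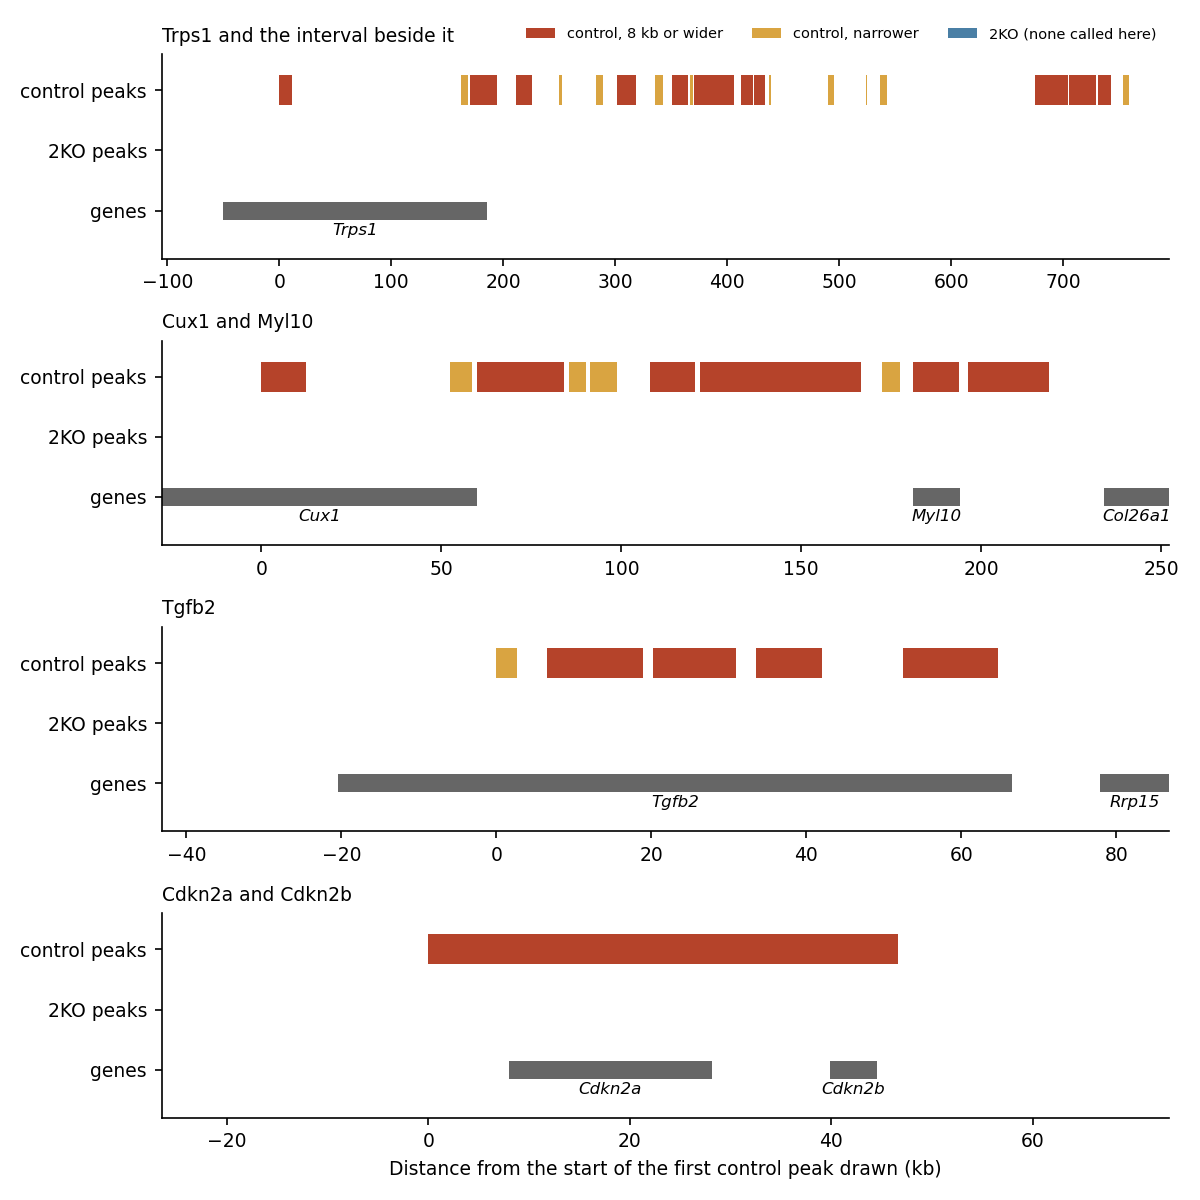
Control peaks (red at 8 kb or wider, yellow narrower), 2KO peaks (blue) and protein-coding genes (grey) at 4 loci, by distance from the first control peak drawn (kb). No 2KO peak was called in any of the 4 windows, which hold 21, 10, 5 and 1 control peaks.

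Of the 99 unmet domains between genes, 50 lay more than 100 kb from any protein-coding gene end (median 101 kb, highest 878 kb), and 39 overlapped a gene of another kind. The widest after the 45.0 kb domain beside Cux1 measured 40.9 kb on chromosome 3 (52552402 to 52593334), 202 kb from Foxo1, at the non-coding RNA gene Gm40047. One of 34.3 kb on chromosome 14 (54159337 to 54193601) lay over joining segments of the T cell receptor alpha locus (Tcra). Those of 33.7 kb on chromosome 11 (63848453 to 63882153), 2.54 kb from Hs3st3b1, and of 29.3 kb on chromosome 6 (31155233 to 31184497), at the non-coding RNA gene Lncpint, followed. The other domains among the 10 widest between genes are those named above near Trps1, Cux1 and Ror2 and 2 on chromosome 15, 377 and 352 kb from Eif3h, of 29.3 kb (51379996 to 51409320) and 23.4 kb (51410865 to 51434268).

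Within 1 kb of the 116 gene-end domains lay ends of 133 protein-coding genes. That is 0.615% of the 21631 annotated, compared with 2.45% (529) at met domains and 10.1% (2180) at any control peak. A single gene lay at 101 domains, 2 genes at 13 and 3 at 2. Of the 133 genes, 8 had a 2KO peak elsewhere over the gene: 6430628N08Rik, Clybl, Prkg1, Pth1r, Rbfox3, Runx3, Tbx4 and Tcte1. The domains covered at least 90% of the body of 37 genes and less than 10% of 49. For the 96 genes with a start in the RefSeq promoter table, 77 had a start inside an unmet domain and 19 did not. Among the domains of 20 kb or more, a 46.6 kb one on chromosome 4 (89266471 to 89313116) covered Cdkn2a and Cdkn2b completely, and their CpG-rich and CpG-poor starts shown above lay inside it. Another of 46.6 kb on chromosome 12 (84036970 to 84083563) held Acot3, Acot4 and Acot5, which encode acyl-CoA thioesterases. These genes are close paralogs, so how reads were assigned among them is uncertain. Domains of 43.9 kb lay over Lhx2 (chromosome 2, 38330926 to 38374838), of 37.8 kb at Xkr9, which encodes a phospholipid scramblase, of 30.4 kb at Ucma, and of 29.7 kb at Cobl, which encodes an actin nucleator. Pitx1, a homeodomain factor of the hindlimb, shared a 26.9 kb domain with Catsper3, a sperm channel gene, and Engase and Rbfox3 shared one of 22.8 kb. Other domains lay within 1 kb of ends of more than 1 gene. They included those at Fbxl8, Hsf4 and Nol3 (10.7 kb), Heatr4 and Acot2 (13.2 kb), and Isl2 and Scaper (11.5 kb). Further ones were at Eif4e3 and Gpr27 (11.5 kb), Tmem202 and Hexa (9.64 kb), Hoxa3 and Hoxa7 (9.13 kb), and Six4 and Mnat1 (9.06 kb). Narrower ones were at Tcte1 and Tmem151b (8.85 kb), Rec114 and Hcn4 (8.65 kb), and Cacna1g and Spata20 (8.45 kb). Acot2, Scaper and Tcte1 lay beside their domains without overlap, and Spata20 and Hoxa3 were covered to 1.53 and 2.80%.

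Genes at wide domains lay mostly at met ones, with 133 of all protein-coding genes at unmet and 529 at met domains, and the counts of developmental transcription factor genes, classical Polycomb targets, are read beside that split. Of 130 homeobox genes outside the Hox clusters, 9 lay at unmet and 91 at met domains. Among these 9 were Lhx2, Emx2 (27.8 kb), Pitx1, Cux1, Vax1 (21.0 kb, ventral forebrain and optic nerve), Gsc (16.8 kb, gastrula organizer), Isl2 (11.5 kb, motor neurons) and Six4 (9.06 kb). Of 66 forkhead, Sox, T-box and Gata genes, 8 lay at unmet and 37 at met domains, with 2 genes in both counts. Foxb1 (26.6 kb), Sox11, Tbx1 (14.5 kb) and Foxc1 (12.2 kb) were covered to 100, 92.7, 100 and 100% by their unmet domains, and Sox7 (11.8 kb) to 94.8%. Tbx4, a hindlimb factor, was touched over 0.447% of its body by a 14.4 kb domain at its last bases, and 2KO peaks lay over the gene. A 2KO peak came to within 13.7 kb of the Tbx3 domain (11.6 kb), and the Gata5 domain (9.02 kb) lay 226 kb from one. Of 72 zinc finger and nuclear receptor factor genes, only Osr2 (20.4 kb, a limb and tooth factor) lay at an unmet domain, beside 36 at met ones. None of 64 basic helix-loop-helix genes lay at an unmet domain, and 28 lay at met ones. Of 39 Hox genes, Hoxa3, Hoxa7 and Hoxb6 (8.40 kb) lay at unmet and 22 at met domains.

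**Figure D5:**
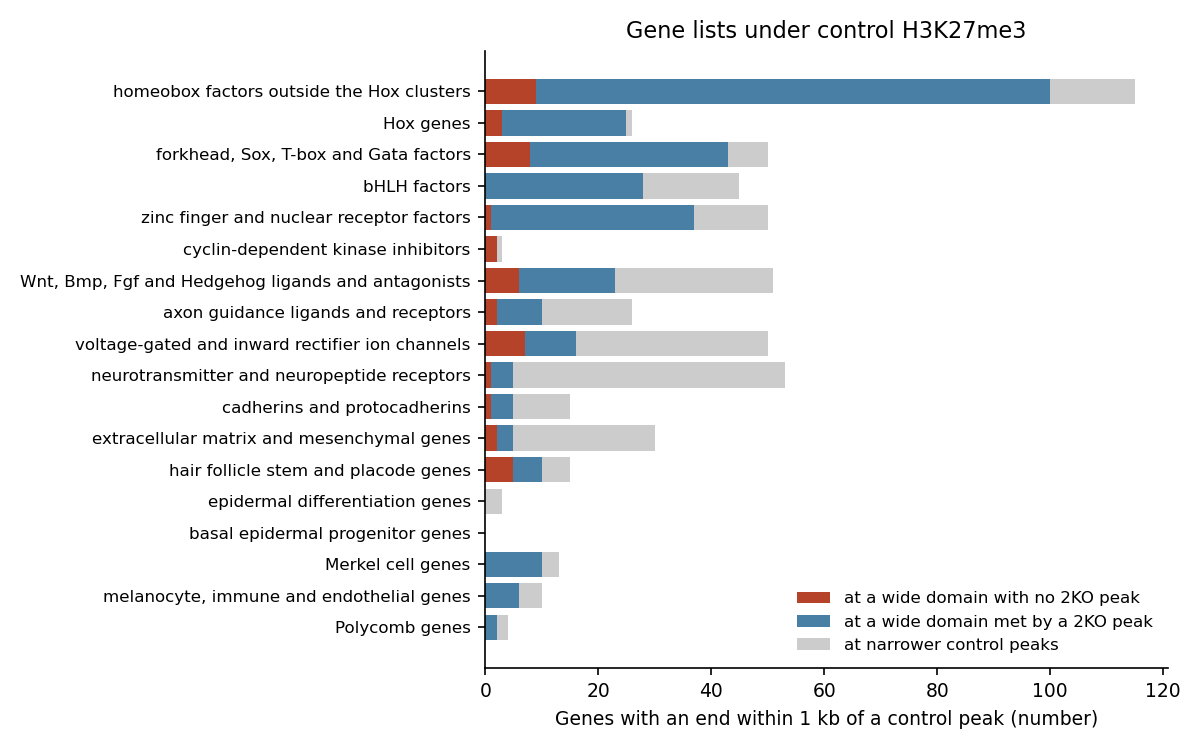
Number of genes of each list with an end within 1 kb of a control peak, split into genes at an unmet domain (red), other genes at a met domain (blue) and genes at narrower control peaks alone (grey). Red makes up 2 of 3 marked kinase inhibitor genes, which share 1 domain, and 9 of 115 marked homeobox genes outside the Hox clusters. Of all 2180 marked protein-coding genes, 133 (6.10%) lay at an unmet domain.

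The counts of lists of other roles are small, and no difference between lists was tested. They stand beside 0.615% of all protein-coding genes at unmet and 2.45% at met domains. Of 7 cyclin-dependent kinase inhibitor genes, 2 lay at the same unmet domain (Cdkn2a and Cdkn2b) and 0 at met ones. Of 37 hair follicle genes, 5 lay at unmet domains (Lhx2, Cux1, Tbx1, Foxc1 and Nfatc1, 10.9 kb) and 5 at met ones. Lists overlap, and Lhx2, Cux1, Tbx1 and Foxc1 are also counted among the transcription factor genes above. Voltage-gated and inward rectifier ion channel genes numbered 86, with 7 at unmet and 9 at met domains. These 7 were the potassium channel genes Kcnd3 (10.7 kb), Kcnj4 (10.7 kb), Kcng3 (9.97 kb) and Kcna1 (8.54 kb), the sodium channel gene Scn8a (8.95 kb), the pacemaker channel gene Hcn4 (8.65 kb) and the calcium channel gene Cacna1g (8.45 kb). Of 107 genes of Wnt, Bmp, Fgf and Hedgehog ligands and antagonists, 6 lay at unmet domains and 17 at met ones. The ligand genes among these 6 were Wnt5a, Inhbb (9.46 kb, an inhibin and activin subunit), Gdf10 (9.40 kb, a Bmp family member) and Fgf10 (9.18 kb), with Rspo1 (11.9 kb, a Wnt agonist) and Hhip (9.13 kb, a Hedgehog antagonist). Axon guidance genes (2 unmet and 8 met of 75) included Nrp2 (10.5 kb) and Sema7a (8.20 kb). The matrix and mesenchymal list (2 unmet and 3 met of 76) included Col2a1 (17.4 kb, cartilage collagen) and Crabp1 (8.22 kb, a retinoic acid binding protein). The cadherin list held Pcdh1 (8.92 kb; 1 unmet and 4 met of 36) and the neurotransmitter receptor list Grm4 (9.05 kb; 1 unmet and 4 met of 108). None of 22 basal progenitor, 44 epidermal differentiation, 21 Merkel cell or 30 Polycomb genes lay at an unmet domain. Nor did any of 36 melanocyte, immune and endothelial genes. At met domains lay 0, 0, 10, 2 and 6 of these genes, in the same order. Lists of this size are small beside a share of 0.615% over all genes, so nothing is read from a count of 0.

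The CpG content of starts inside unmet and met domains had overlapping intervals. Over the 300 bases around each start (250 before and 50 after), the median ratio of observed to expected CpG was 0.71 (quartiles 0.49 and 0.89) for 106 starts of 84 genes inside unmet domains and 0.71 (quartiles 0.50 and 0.85) for 408 starts of 348 genes inside met domains, compared with 0.57 for all 21045 starts. A ratio of 0.6 or more was found in 67.0% (57.6 to 75.2) of the first, 65.0% (60.2 to 69.4) of the second and 48.1% of all starts. At the low end inside unmet domains lay Pth (0.08), Acot3 (0.13) and Ucma (0.18). For all genes at domain ends the same check is void, because 72.2% of those at unmet and 73.7% of those at met domains had a start in the table. The shares above share this gap, as they cover tabled starts alone, and the table covers 79.9% of protein-coding genes. Of 1005 microRNA hairpins in the RefSeq sequence table, 3 lay wholly inside unmet domains and 26 inside met ones. Mir1247, inside the 10.0 kb domain at the thyroid hormone deiodinase gene Dio3, has these mature arms, with the seed (bases 2 to 8) in capitals.
mmu-miR-1247-5p: aCCCGUCCcguucguccccgga
mmu-miR-1247-3p: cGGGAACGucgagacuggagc
The others of these 3 were Mir1895 at Cxxc4 (11.7 kb) and Mir8104 at Ppm1h (8.44 kb). The gene annotation places a further microRNA gene, Mir1907, at the 24.5 kb Trps1 domain.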

How the data were processed

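H3K27me3 was mapped in 2 control and 2 Ring1a/b 2KO libraries. The submitters' processing notes name Bowtie2 2.3.3.1, SAMtools 1.9 and mm10. Each genotype's called peaks were deposited as positions alone. No source used here gives the caller, its threshold, the use of input, pooling or depth; a stricter 2KO call would add unmet domains.

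Python 3.11.15 (pandas 2.3.3, numpy 2.4.6, scipy 1.17.1 and, for figures, matplotlib 3.10.9) was used for overlaps (at least 1 bp), gene positions and intervals. Printed positions count from 1. The 21631 protein-coding genes (autosomes and X) and their starts came from RefSeq tables of GRCm38.p6, the assembly of mm10. A gene was at a domain when either end lay within 1 kb. In a copy of the control list with 200 wide domains removed and the other peaks narrowed, 200 of 200 removed domains were found. This checks the overlap step alone, as every kept peak overlaps itself, and says nothing on peak calling or depth. Domains of 1 list are not replicates, so no p-value was computed. Named were genes at the 30 widest domains, listed genes, the domains with most genes, the 5 farthest from a 2KO peak, the 10 widest between genes and those nearest the threshold; others, such as Tgfb2, Ror2 and Pth, were chosen after their values were seen. Some genes that this rule names are not reported here. The members and 18 gene lists were chosen with earlier results of these data known. Alternatives changed the width minimum, overlap, merging, 2KO peaks, chromosomes, gene window and neighbour distance.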

Additional observations from a re-analysis of the deposited data

How the results depend on the processing

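No paired analysis was possible because the replicates share a single peak list within a genotype, so leaving out replicates could not be tried either. Of 51 alternative values over 10 results, 42 stayed within 1.5 times the main value, or within its interval for shares. The 10 results include the ratio of median promoter CpG content over all genes at domain ends, the check called void above. Its alternatives are among the 42, and nothing is read from them. Only the gene-end difference has a sign, and it was negative in every setting. The number of unmet domains (269) was 495 with a width minimum of 6 kb and 117 with 12 kb, and their covered length (3.71 Mb) was 2.24 Mb with 12 kb, as fewer or more peaks pass. The difference in the gene-end share to other wide domains (-36.3 points) was -46.2 points with 12 kb. With 2KO peaks of at least the median width alone, the gene-end share (43.1%) was 49.9% and the median distance to a 2KO peak (359 kb) was 614 kb. The share of unmet domains with a start of the promoter table inside them was 30.5%. That is another measure than the gene-end share. It uses no 1 kb window, it counts starts within gene bodies, and the table covers 79.9% of protein-coding genes. The share with an unmet neighbour (77.7%) was 65.4% with neighbours at least 50 kb away and 71.4% after merging control peaks within 3 kb, both added after the data were seen. Leaving out chromosome 15, also added, gave 241 domains and a gene-end share of 44.4%. Unknown depth and calling thresholds limit every statement on absence of a 2KO peak.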

Other observations

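Imprinted genes, expressed from 1 parental allele, were counted with a list of 37 made after Dlk1 and Dio3 had been seen at unmet domains, so their count supports nothing. At control peaks lay the ends of 13 of these 37 genes, beside 10.1% of all protein-coding genes. At 2KO peaks lay the ends of 6, and the share of all genes at 2KO peaks was not computed. Unmet domains lay at the ends of 2, beside 0.615% of all protein-coding genes, and met domains at the ends of 3, beside 2.45%. The 2 at unmet domains were Dlk1 (17.8 kb, chromosome 12) and Dio3 (10.0 kb, chromosome 12), which belong to the same imprinted cluster and had prompted the list. Grb10 held its 21.2 kb unmet domain inside the gene while other control and 2KO peaks lay at its ends.

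Immune cell genes outside the gene lists, chosen after their values were seen, included Irf8, a myeloid factor, with an unmet domain of 15.1 kb, and the T cell receptor alpha locus described above. The fixed list for melanocytes, immune cells and endothelium had 0 of 36 annotated genes at unmet domains, beside 0.615% of all protein-coding genes. None of the 3 immune markers lay at a control peak, so the picked loci stand for no immune gene set. Pth and the gene of its receptor, Pth1r, had unmet domains of 12.1 and 13.4 kb on different chromosomes, and the Pth1r domain lay 4.50 kb from a 2KO peak.

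Runs of consecutive control peaks without a 2KO peak also covered 21 peaks over 4.86 Mb of chromosome 13 and 17 over 2.79 Mb of chromosome 3. Runs of 15 covered 4.67 Mb of chromosome 7 and 4.47 Mb of chromosome 6. These runs held 7, 3, 5 and 3 unmet domains, with 0 2KO peaks inside each. Like the run on chromosome 15, they were built from control peaks without a 2KO peak and picked as the longest. Their lack of met peaks is thus fixed, and 52.6% of all control peaks had no 2KO peak. Some shorter runs did hold 2KO peaks between their control peaks, such as 2 in a run of 12 on chromosome 11.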
